A study of Mus musculus with 4 samples.

Results

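Smad6, Smad7, Bambi, Nog and Smoc1, 5 genes that encode inhibitors of bone morphogenetic protein (BMP) signalling, were examined for accessible chromatin in mouse forelimb buds at 2 embryonic stages. An accessible region was assigned to a member when the nearest transcription start of a protein-coding gene was its own, or when the centre of the region lay within 2.5 kb of one of its starts. By this rule the members held 52 of 42613 regions at E9.5 and 52 of 46765 regions at E10.5, together 104 of 89378 regions, and they are 5 of 22380 annotated protein-coding genes.

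ATAC-seq, which relies on a transposase that inserts sequencing adapters into open chromatin, was used to map accessibility as part of a search for target genes of the BMP signal transducer SMAD4 in the early limb bud. The embryos of both stages were wild type, of the NMRI strain and untreated as far as the labels state, and each of the 2 biological replicates of a stage was the forelimb bud pair of 1 embryo. Samples titled E9.5, for which the protocol states E9.75, kept an attached piece of trunk, whereas none is named for E10.5, so that stage and trunk tissue cannot be told apart in any comparison. For E10.5, hindlimb buds are named in the tissue label, but in neither the source label nor the protocol. The replicates of a stage had been combined into 1 list of regions, which leaves no replicate error for any value and no test between the stages.

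BMP ligands bind paired serine/threonine kinase receptors, which phosphorylate SMAD1, SMAD5 and SMAD9. These join SMAD4 in a complex, which enters the nucleus and switches on target genes, several of which encode inhibitors of the same pathway. SMAD6 and SMAD7 are inhibitory SMADs that act inside the cell on receptors and receptor-activated SMADs. BAMBI is a transmembrane receptor decoy without a kinase domain, Noggin (encoded by Nog) is a secreted protein that binds BMP ligands, and SMOC1 is a secreted matrix-associated protein that antagonises BMP signalling. In the limb bud, BMP signalling takes part in early patterning and later in digit formation, and its antagonists restrain it.

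SMAD4 and the receptor-activated SMADs bind the palindrome GTCTAGAC and the shorter GTCT, so the sequences of the regions on which the comparisons turn are given with these letters in capitals, on either strand (AGAC is GTCT read on the other strand). The promoter of Smad6 is shown as the 1 promoter of the 5 genes found in the sequence table used. It is the RefSeq promoter (GRCm38.p6), from 250 bases before to 30 bases after the start, which matched the mm9 genome at a single place, chr9:63869837-63870116 on the minus strand. The regions at -23.3 kb and -44.9 kb are the highest-scoring Smad6 regions found at E9.5 only, and lie at chr9:63893101-63893301 and chr9:63914704-63914904. The regions of Smoc1 at +1.6 kb (chr12:82129268-82129468), Smad6 at -36.4 kb (chr9:63906140-63906340) and Smoc1 at -23.6 kb (chr12:82104050-82104250) rose most in rank from E9.5 to E10.5 among those of Smad6, Nog and Smoc1, and the region of Nog at +4.0 kb (chr11:89159733-89159933) is its highest-scoring distal region. These 6 are the 201 bases around the centre of the region, from the plus strand of mm9. Positive distances lie downstream of the nearest start of the gene, and negative ones upstream.
Smad6 promoter: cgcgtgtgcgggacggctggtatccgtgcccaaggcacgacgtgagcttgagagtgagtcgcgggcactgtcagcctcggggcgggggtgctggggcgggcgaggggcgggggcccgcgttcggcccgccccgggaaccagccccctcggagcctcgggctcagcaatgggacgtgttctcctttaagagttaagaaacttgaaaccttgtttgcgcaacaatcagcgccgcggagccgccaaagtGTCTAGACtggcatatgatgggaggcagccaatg
Smad6 -23.3 kb, E9.5: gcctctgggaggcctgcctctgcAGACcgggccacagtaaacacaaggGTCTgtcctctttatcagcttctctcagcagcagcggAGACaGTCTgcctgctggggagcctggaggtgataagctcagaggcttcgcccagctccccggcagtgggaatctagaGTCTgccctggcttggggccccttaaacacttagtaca
Smad6 -44.9 kb, E9.5: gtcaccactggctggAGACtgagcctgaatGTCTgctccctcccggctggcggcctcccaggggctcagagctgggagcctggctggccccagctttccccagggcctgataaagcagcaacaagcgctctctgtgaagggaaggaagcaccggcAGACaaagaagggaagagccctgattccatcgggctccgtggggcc
Smoc1 +1.6 kb, E10.5: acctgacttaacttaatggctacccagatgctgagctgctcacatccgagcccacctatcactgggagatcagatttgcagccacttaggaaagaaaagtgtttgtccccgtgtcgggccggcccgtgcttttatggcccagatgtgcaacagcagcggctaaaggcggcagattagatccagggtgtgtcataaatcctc
Smad6 -36.4 kb, E10.5: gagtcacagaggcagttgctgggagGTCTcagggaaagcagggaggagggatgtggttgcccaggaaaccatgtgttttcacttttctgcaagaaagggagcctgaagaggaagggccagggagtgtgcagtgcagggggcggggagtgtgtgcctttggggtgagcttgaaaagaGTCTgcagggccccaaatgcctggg
Smoc1 -23.6 kb, E10.5: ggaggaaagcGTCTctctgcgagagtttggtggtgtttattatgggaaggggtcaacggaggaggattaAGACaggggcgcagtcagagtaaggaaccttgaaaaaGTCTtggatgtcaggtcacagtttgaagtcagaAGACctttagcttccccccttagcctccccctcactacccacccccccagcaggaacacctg
Nog +4.0 kb, E10.5: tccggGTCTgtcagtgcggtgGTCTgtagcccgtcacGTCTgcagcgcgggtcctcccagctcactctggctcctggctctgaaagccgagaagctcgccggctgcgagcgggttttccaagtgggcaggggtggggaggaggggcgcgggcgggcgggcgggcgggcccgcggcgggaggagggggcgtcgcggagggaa

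The Smad6 promoter held 1 match to the palindrome, beginning 4 bases before the RefSeq start and running across it, and its 2 GTCT matches were the palindrome itself. Of 32851 RefSeq promoters, each taken 20 bases further than the printed stretch, 70 held the palindrome (0.213%) and 88.0% held GTCT. Among the E9.5-only Smad6 windows, the one at -23.3 kb held 5 GTCT matches and the one at -44.9 kb held 3. The windows at Smoc1 -23.6 kb, Nog +4.0 kb and Smad6 -36.4 kb held 4, 3 and 2, and the Smoc1 window at +1.6 kb held 0. In windows of this length, GTCT was present in 77.1% of all E9.5 regions, at 1.54 matches per window, and in 76.5% of all E10.5 regions, at 1.5 matches per window.

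The deposited score of a region is 10 times the negative log10 of the best p-value among the overlapping regions of the replicates, and it grows with sequencing depth, which is unknown here. The stages were therefore compared by rank, the percentage of regions of the same list with a lower score. No E9.5 region scored below 60.5 and no E10.5 region below 60.4, and a region missing from a list, for a weak signal or for want of support from the replicates, is not shown to be closed. Regions with 1 bp or more in common between the lists are referred to as shared, and all others as stage-only. Intervals are 95% Wilson intervals, and beside a count of 0 the limit given is the share that 3 counts would make. Both cover counting error only and treat regions as independent.

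At both stages each of the 5 genes had at least 1 promoter-proximal region, centred within 2.5 kb of a start, as did 61.3% of protein-coding genes. Over the members together, 15 of 52 E9.5 regions were absent from the E10.5 list (28.8%, interval 18.3 to 42.3), against 29.9% of all E9.5 regions, a share near the background. At E10.5, 12 of 52 regions were absent from the E9.5 list (23.1%, interval 13.7 to 36.1), against 35.0% of all E10.5 regions. Of the 8 promoter-proximal regions at E9.5, 0 were stage-only, which allows a share of up to 37.5%, against 13.1% of all promoter-proximal regions of the list, and of the 11 at E10.5, 1 was, against 5.31%. Among distal regions, more than 2.5 kb from a start, 15 of 44 were E9.5-only (34.1%, interval 21.9 to 48.9) against 40.3% of the list, and 11 of 41 were E10.5-only (26.8%, interval 15.7 to 41.9) against 49.6% of the list. The E10.5 interval lay below the share of the list, whereas the E9.5 interval included it. These intervals pool the regions of all members and are no test, and the genes differed. Distal E10.5 regions were stage-only in 5 of 21 for Smad7, 0 of 5 for Smad6 and 1 of 4 for Nog. For Smoc1 the count was 1 of 7, and for Bambi 4 of 4.

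Base composition was compared between stage-only and shared distal regions, pooled over the members. The median GC content around the centre of distal E10.5-only regions was 44.2% over the list and 49.2% over the 11 regions of the members. Shared distal E10.5 regions had a median of 50.5% over the list and 57.1% over the members. Among list regions of the same score decile, 49.0% of distal E10.5 regions were stage-only. Among those of like score and like GC content (5 classes of each) the share was 29.5%, and among the members it was 26.8%. At E9.5, GC content differed little with the class, with a median of 50.8% for both stage-only and shared distal regions of the list and of 56.1% and 55.8% for those of the members, and list regions of like score and GC content were stage-only in 40.2%. These values depend on where the centre falls, since the window follows it. The shared Nog region centred at +3.53 kb at E9.5 read 36.2%, and its E10.5 partner, centred at +4.04 kb, read 70.8%. The part of GC content in the E10.5-only share was not tested.

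**Figure D1:**
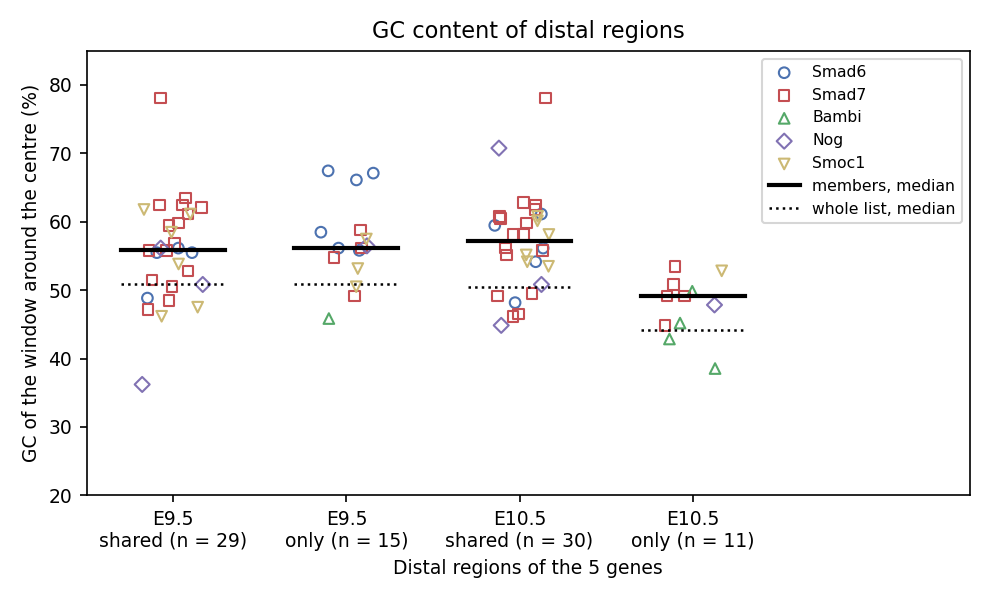
GC content (%) in the window around the centre of each distal region of the 5 genes, by stage and by presence in the other list, with 1 symbol per region, thick lines for the median of the members and dotted lines for the median of the whole list. The E10.5-only regions of the members (median 49.2%) lie below their shared E10.5 regions (57.1%) and above the E10.5-only regions of the list (44.2%).

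The 5 genes differed in how many regions they held. Stretches of the genome nearest to a start of the gene measured 182 kb for Smad6, 343 kb for Smad7, 366 kb for Bambi, 172 kb for Nog and 174 kb for Smoc1. Over these stretches Smad7 held 6.41 and 7.29 regions per 100 kb at E9.5 and E10.5, Smad6 6.59 and 3.84, and Smoc1 6.32 and 5.17, against 1.61 and 1.76 over all protein-coding genes. Nog held 2.91 at both stages. Bambi, with the longest stretch, held 0.546 and 1.64 regions per 100 kb, fewer than the whole list at either stage.

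**Figure D2:**
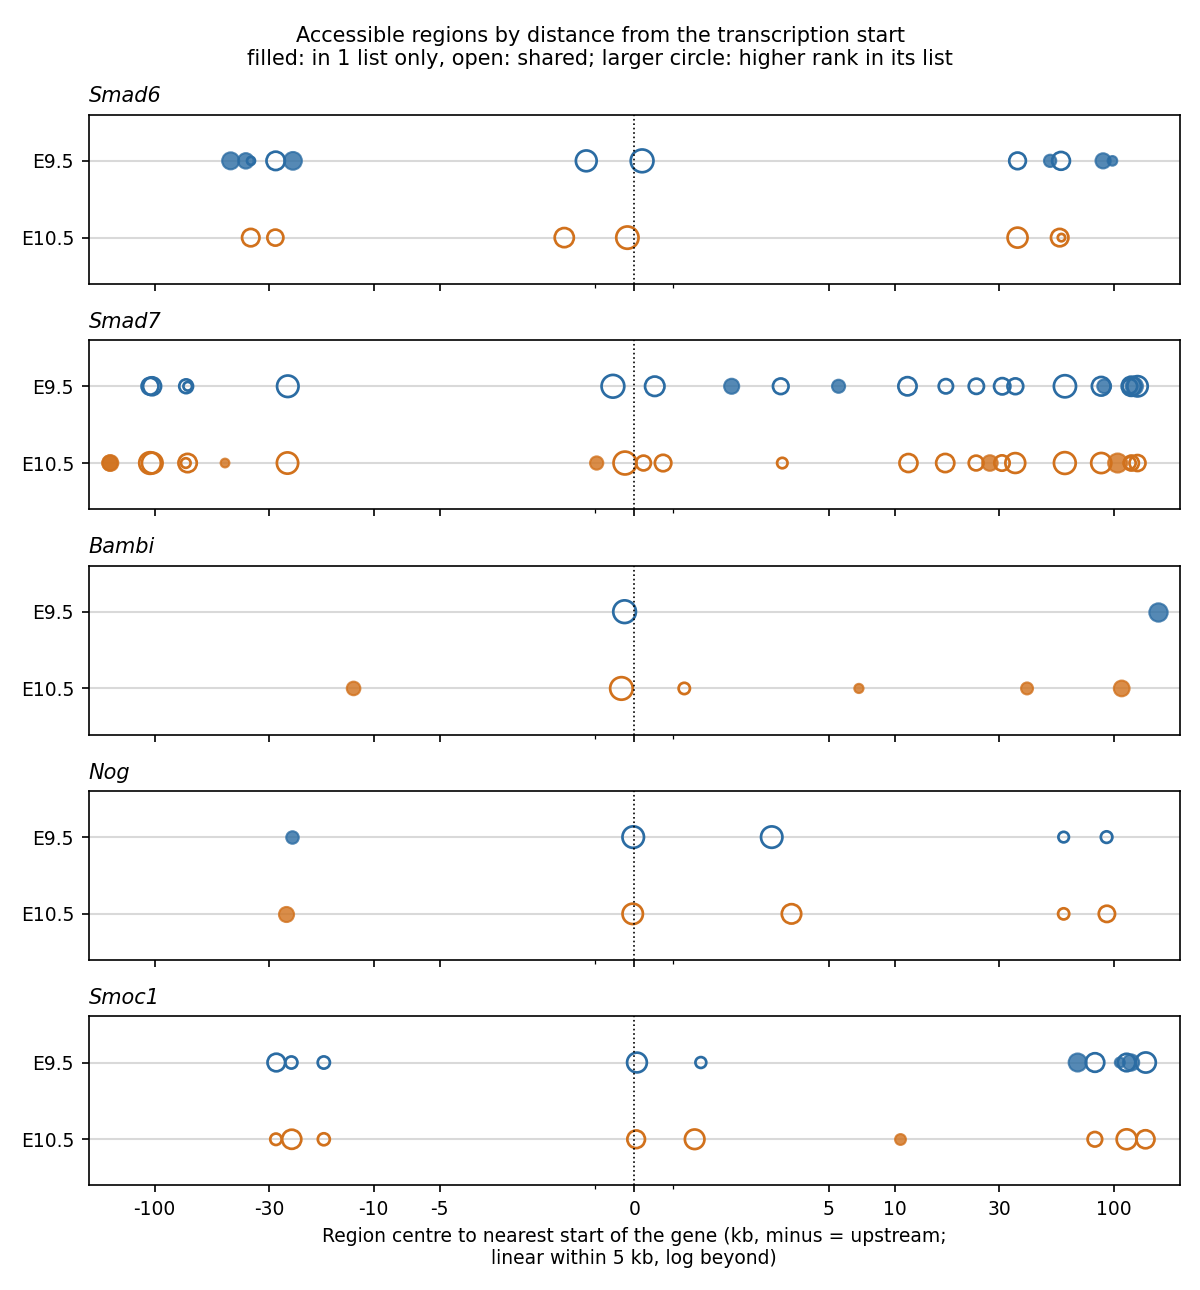
Every region of the 5 genes by distance of its centre from the nearest start of the gene (kb, linear within 5 kb and logarithmic beyond), with E9.5 above E10.5, filled circles for stage-only regions, open circles for shared ones and larger circles for higher ranks. Smad6 shows 6 filled circles at E9.5 and 0 at E10.5, whereas Bambi shows 1 and 4.

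Smad6 (ENSMUSG00000036867.5, mm9 chr9:63800953-63869866, minus strand, 2 starts) encodes the inhibitory SMAD that acts mainly on BMP signalling. It held 12 regions at E9.5 and 7 at E10.5, which covered 18.9 kb and 9.39 kb. Of the E9.5 regions 6 were stage-only (50%, interval 25.4 to 74.6), against 35.3% of list regions of the same score deciles, and of the E10.5 regions 0 were, which allows a share of up to 42.9% and includes the 31.2% of list regions of the same deciles. All 6 were distal, so that 6 of 10 distal E9.5 regions were stage-only (60%, interval 31.3 to 83.2), against 42.2% of distal list regions of the same deciles, a share inside the interval.

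Upstream, the E9.5-only regions of Smad6 lay at -23.3 kb with a score of 308, at -38.3 kb with 191 and at -44.9 kb with 257. Their ranks were 55, 39.0 and 49.6. The nearest E10.5 regions were 3.81 kb, 0.957 kb and 7.13 kb away. Downstream, the intronic region at +51.2 kb scored 129 (rank 20.8), and the intergenic regions at +89.3 kb and +98.6 kb scored 182 and 104 (ranks 37.1 and 8.6). The gaps to the nearest E10.5 region were here 4.31 kb, 30.8 kb and 40.2 kb. Thus 1 of the 6 ranked in the upper 50% of the E9.5 list. The 6 had a median GC content of 62.3%, above the 55.5% of the shared distal regions of Smad6 at E9.5.

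The stage-only counts of Smad6 varied with the regions, overlap and annotation used. With the higher-scoring 50% of each list, 2 of 5 E9.5 and 2 of 5 E10.5 Smad6 regions were stage-only, and when the higher-scoring 50% was set against the whole other list, 1 of 5 and 0 of 5 were. With reciprocal overlap of at least 50%, 8 of 12 and 3 of 7 were stage-only, and with starts of all gene types competing, 3 of 7 and 0 of 5. Shares of the whole lists under these settings are not given here, so these counts have no background beside them. Of 1775 genes with at least 5 regions in each list, 19 (1.07%) had at least 50% of their E9.5 regions E9.5-only and 0 E10.5-only. These limits were set after the counts of Smad6 were seen and equal its own values. Smad6 was thus bound to be among the 19, and the share is no measure of how unusual it is.

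The shared regions of Smad6 included its promoter, which scored 2899.8 at E9.5 over 3640 bp and 1551 at E10.5 over 2764 bp, with ranks of 97.5 and 93.2. Near its other start, inside the gene, a region scored 984 and 401 (ranks 79.6 and 65.7). Its centre lay 1.231 kb upstream of that start at E9.5 and 1.796 kb upstream at E10.5, where the region did not reach the start. Both promoter regions thus ranked lower at E10.5. Away from the promoter, the region at -36.3 kb (printed as Smad6 -36.4 kb, its centre at E10.5) moved the other way, from a score of 81.9 (rank 2.47) to 259 (rank 52.6), and so did the intronic region at +36.3 kb, from 237 (rank 47.0) to 524 (rank 72.5). The region at -28.0 kb, in an intron of 1110036E04Rik, fell in rank from 59.8 to 42.9. At +57.4 kb, an intronic region of 3014 bp at E9.5 (rank 55.5) met 2 E10.5 regions of 1344 bp and 704 bp (ranks 52.7 and 0.492).

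Smad7 (ENSMUSG00000025880.5, mm9 chr18:75527183-75555589, plus strand, 5 starts) encodes the other inhibitory SMAD, which acts on both BMP and TGF-beta receptors. It held the most regions of the 5 genes, 22 at E9.5 and 25 at E10.5. Of genes with a region, 99.72% held fewer at E9.5 and 99.66% held fewer at E10.5. Of the 22, 4 were E9.5-only (18.2%, interval 7.31 to 38.5), against 30.8% of list regions of the same score deciles. Of the 25, 6 were E10.5-only (24.0%, interval 11.5 to 43.4), against 36.5% of such list regions. Both list shares lay inside the intervals. For distal E10.5 regions of Smad7 the share was 23.8% (interval 10.6 to 45.1), against 45.9% of distal list regions of the same deciles. Many of its regions lay in the bodies of neighbours, with 7 E9.5 and 6 E10.5 regions in Ctif, and 2 and 4 in Dym, although the start of Smad7 was the nearest.

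Accessibility at the Smad7 promoter was strong at both stages. At E9.5 it was 1 region of 5558 bp with a score of 2828 (rank 97.3), and at E10.5 it was a region of 2594 bp with a score of 2818 (rank 98.6) followed by one of 976 bp with a score of 167 (rank 35.0). Within the gene, a shared region near another start scored 549 at E9.5 and 216 at E10.5 (ranks 68.2 and 45.9), and an E10.5-only promoter-proximal region scored 139 (rank 25.8) at 142 bp from the nearest E9.5 region. The E9.5-only intronic region at +2.503 kb, scoring 180.1, lay just beyond the promoter limit, and the Smad6 region at -1.796 kb at E10.5 was the farthest inside it.

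Regions of Smad7 moved in rank in both directions. On the upstream side, the Dym intron regions at -104.9 kb and -102.7 kb rose from ranks of 48.7 and 56.8 to 87.1 and 78.4, with their scores going from 250.4 and 330.4 to 1057 and 681. An intergenic region at -70.6 kb rose from 4.61 to 59.3, next to one at -71.8 kb that fell from 28.9 to 8.43. On the downstream side, the Ctif intron regions at +120.2 kb and +128.3 kb fell from 66.4 and 75.4 to 36.2 and 42.5. Nearer to the gene, the regions at +17.1 kb and +35.5 kb rose from 32.1 and 41.2 to 58.1 and 71.4, so that both sides of the start held regions that rose and regions that fell. An intronic region at +3.76 kb fell from 40.1 to 12.02, and the shared regions at +11.4, +23.6, +30.9, +87.6 and +118.4 kb changed by between -14.1 and 12.03 points. Regions of high rank that changed by under 4 points stood at -24.6 kb (85.8 and 84.0) and in an exon of Ctif at +59.8 kb (91.7 and 88.4).

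The stage-only regions of Smad7 were of low to middle rank. At E9.5 they ranked between 25.0 and 51.7, with the highest at +124.0 kb in a Ctif intron, and 2 of the 4 lay in introns of Smad7 itself, at +2.503 kb and +5.54 kb. At E10.5 the ranks ran from 5.32 to 64.9, the highest being a Ctif intron region at +104.1 kb with a score of 388. The regions at -47.7 kb and +27.2 kb ranked 5.32 and 39.9. The pair at -160.1 kb and -159.1 kb in Dym scored 180.3 and 193, at least 52.6 kb from any E9.5 region.

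Bambi (ENSMUSG00000024232.1, mm9 chr18:3507955-3516402, plus strand, 1 start) encodes the membrane-bound decoy. Its promoter region scored 2668 at E9.5 over 2439 bp and 1944 at E10.5 over 1754 bp, with ranks of 96.7 and 95.7, and a weak E10.5 region at +1.29 kb (score 116, rank 15.9) shared 72 bp with its 3′ edge at E9.5. Away from the promoter the lists shared nothing. The 1 distal E9.5 region, at +159.0 kb, scored 367 (rank 59.4) and lay 48.9 kb from the nearest E10.5 region. The 4 distal E10.5 regions, at -12.3 kb, +6.86 kb in a UTR of the gene, +40.2 kb and +108.6 kb, scored 144, 97.2, 123 and 192, with ranks of 27.7, 6.86, 19.0 and 41.0. All 4 E10.5-only regions thus ranked in the lower 50% of their list, and their median GC content was 44.0%, near that of all distal E10.5-only regions. With 1 of 2 and 4 of 6 regions stage-only, the intervals ran from 9.45 to 90.5% and from 30 to 90.3%. They included the 14.9% and 45.6% of list regions of the same score deciles that were stage-only at E9.5 and E10.5. Among distal list regions of the same deciles these shares were 32.7% and 58.8%.

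Nog (ENSMUSG00000048616.3, mm9 chr11:89161952-89163873, minus strand, 1 start), the gene of the secreted ligand trap Noggin, held 5 regions at each stage, 4 of which were shared. Its promoter region was almost as wide at both stages, 2878 bp and 2846 bp, with a score of 1359.7 (rank 86.0) in the earlier list and 606 (rank 76.0) in the later. Downstream, the region at +3.53 kb scored 1292 over 3103 bp at E9.5, and its partner at +4.04 kb, whose centre is printed with the sequences, scored 436 over 1923 bp at E10.5. The ranks were 85 and 67.9, so that both strong regions of Nog stood lower in the E10.5 list.

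Farther from Nog, regions at +59.0 kb were weak at both stages, with scores of 111 and 114 (ranks 12.4 and 15.2). The region at +92.7 kb rose from a score of 121 (rank 17) to 209 (rank 44.5). At the upstream end each list held 1 region of its own, at -23.6 kb with a score of 132 at E9.5 and at -25.2 kb with a score of 174 at E10.5. These 2 stage-only regions were 709 bp apart and did not overlap, with GC contents of 56.5% and 47.8%. Of the 5 regions at each stage 20% were thus stage-only (interval 3.62 to 62.4), against 32.5% and 38.6% of list regions of the same score deciles.

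Smoc1 (ENSMUSG00000021136.7, mm9 chr12:82127795-82287401, plus strand, 2 starts) encodes the matrix-associated antagonist. It held 11 regions at E9.5, 3 of them stage-only (27.3%, interval 9.7 to 56.6), against 33.7% of list regions of the same score deciles. At E10.5 it held 9, 1 of them stage-only (11.1%, interval 1.99 to 43.5), against 41.3% of such list regions. Its promoter was the weakest of the 5, with a score of 628 (rank 70.8) at E9.5 and 272 (rank 54.2) at E10.5. All promoter-proximal regions of the lists had median ranks of 77.8 (E9.5) and 77.1 (E10.5), above Smoc1 at both stages and above Nog at E10.5.

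While the Smoc1 promoter fell in rank, the region just downstream in an intron rose, from a score of 114 (rank 13.8) at +1.71 kb to 460 (rank 69.3) at +1.55 kb. It is the region printed as Smoc1 +1.6 kb, and at E10.5 it outranked the promoter. Upstream, the region at -23.7 kb rose from 127 (rank 19.9) to 398 (rank 65.5), while its neighbour at -27.8 kb fell from 298 (rank 54.0) to 117 (rank 16.4) and the one at -16.9 kb stayed at ranks of 20.4 and 19.3. Inside the gene, the region at +82.0 kb fell in rank from 61.4 to 33.5 and the region at +114.4 kb rose from 52.9 to 72.2. Near the far end of the gene, the region at +139.9 kb stood at 73.9 and 57.3. The 3 E9.5-only regions, all intronic at +68.4, +106.5 and +119.9 kb, ranked 57.1, 10.1 and 44.5, and the E10.5-only region at +10.53 kb ranked 13.8.

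**Figure D3:**
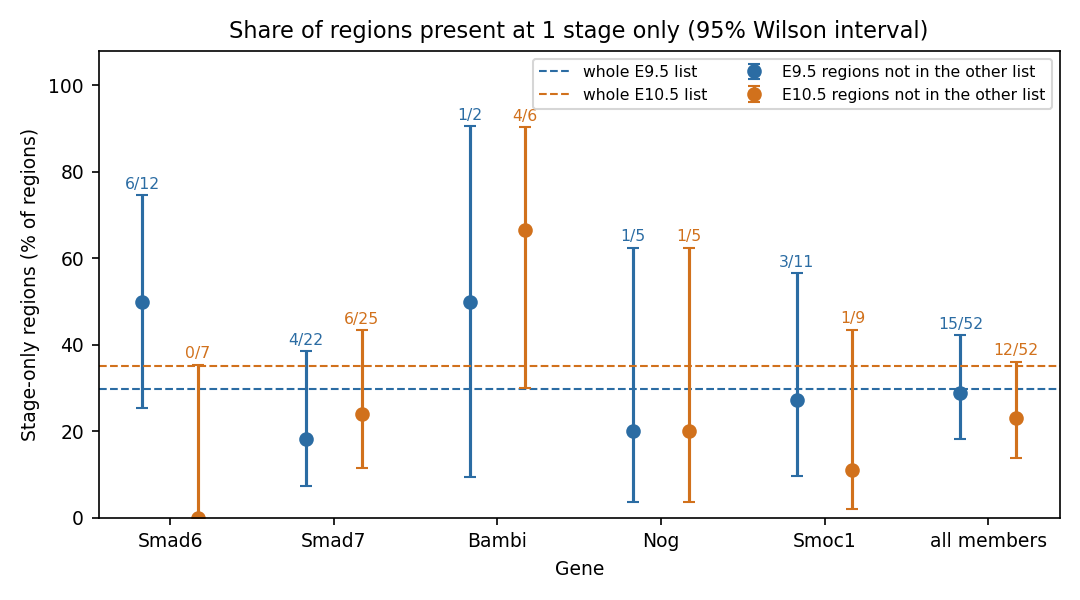
Percentage of regions of each gene that were absent from the other list, with 95% Wilson intervals, counts above them and dashed lines at the shares of the whole lists (29.9% at E9.5, 35.0% at E10.5). Smad6 had 6 of 12 and 0 of 7 stage-only regions and Bambi 1 of 2 and 4 of 6, with wide intervals that cover counting error only.

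Ranks of the 37 shared E9.5 regions were compared with those of the E10.5 region sharing the most bases. A rank higher by at least 20 points at E10.5 was found for 10 pairs (27.0%), against 14.3% of all shared E9.5 regions, and a rank lower by at least 20 points for 7 pairs (18.9%), against 13.2%. Most pairs of the members were distal, and of these 29 pairs 9 rose (31.0%) and 6 fell (20.7%), against 24.4% and 15.0% of distal shared regions of the list. Of the 8 promoter-proximal pairs 1 rose and 1 fell (12.5% each), against 3.08% and 11.3% of promoter-proximal shared regions of the list. This limit was chosen with the values in view. Smad7 held 5 of the 10 that rose and 5 of the 7 that fell, Smad6 2 and 0, Smoc1 2 and 2, Nog 1 and 0, and Bambi, with 1 pair, 0 and 0. The promoter region scoring highest at E9.5 moved by -4.31 points for Smad6, 1.36 for Smad7, -0.997 for Bambi, -10.02 for Nog and -16.6 for Smoc1, where the median change over all 14190 shared promoter-proximal E9.5 regions was -1.44 points. For Smoc1 the region scoring highest at E10.5 within 2.5 kb of a start was another, the one that rose by 55.4 points. Over the 37 pairs the median change was -2.81 points, against 0.155 over all 29883 shared E9.5 regions.

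**Figure D4:**
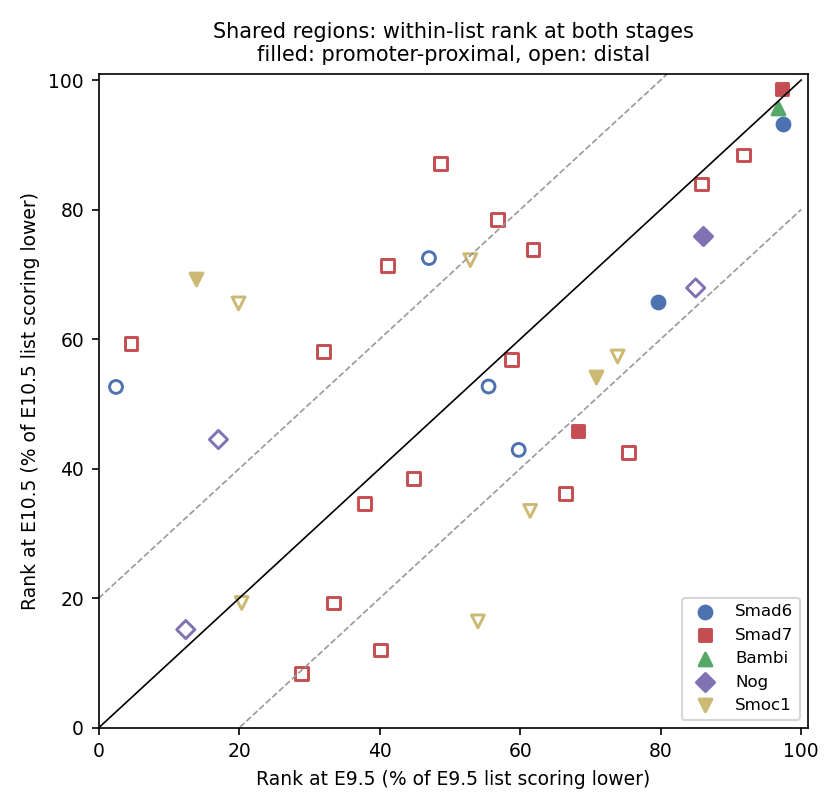
Rank (percentage of the list scoring lower) at E9.5 and E10.5 of the 37 shared regions, with 1 symbol per gene, filled for promoter-proximal and open for distal, the line of equal rank and dashed lines 20 points from it. The symbols above the upper dashed line are 10 pairs that rose, led by Smoc1 at +1.7 kb (55.4 points) and Smad7 at -70.6 kb (54.7 points), and 7 lie below the lower one.

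SMAD sites in the regions were counted on both strands in a window of fixed length around each centre. The palindrome GTCTAGAC, which contains GTCT, was present in 0 of 52 windows at E9.5, which allows a share of up to 5.77%, and in 1 of 52 at E10.5, against 0.284% and 0.306% of all windows. GTCT itself was in 47 and 43 of 52 windows (90.4% and 82.7%), against 88.7% and 88.5% of the lists. The GC-rich site GGCGCC was in 7 of 52 at each stage (13.5%), against 13.0% and 11.2%, and GGCGCC followed after 5 bases by GTCT, the BMP response element, in 0 and 0, against 0.0751% and 0.0556%. TGACAG, bound by TALE homeodomain proteins of the limb such as MEIS, was in 13 and 16 of 52 windows (25.0% and 30.8%), against 21.5% and 20.8%. None of these shares was tested against the list.

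Over the whole width of the regions, the palindrome lay in the promoter regions of Smad6 and Smad7 at both stages and in the shared Smad7 region at +23.6 kb. At Smad6 it began at position 63869863 of chr9, and at Smad7 at positions 75526830 and 75557882 of chr18. Thus it was held by 2 of 8 E9.5 and by 2 of 11 E10.5 promoter-proximal regions of the members. Of all promoter-proximal regions 1.54% and 1.37% held it, and of those at least 2 kb wide, as the 2 members' regions were, 2.35% and 2.36%.

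Other genes of the pathway gave a wider setting, with 40 genes in 6 lists. They held 194 regions at E9.5, 51 of them stage-only (26.3%), and 243 at E10.5, 92 of them stage-only (37.9%), and 37 of the 40 had a promoter region at both stages (Gdf5 and Cer1 had none at either stage, Nbl1 at E10.5). Against 35.0% of the whole list, E10.5-only regions were 27 of 48 (56.2%) for receptors, with 14 at Bmpr1b and 12 at Acvr2a, 33 of 68 (48.5%) for ligands, with 21 at Bmp2, and 26 of 56 (46.4%) for other secreted antagonists and modulators. They were 2 of 27 (7.41%) for other intracellular inhibitors, 1 of 33 (3.03%) for BMP-responsive transcription factor genes and 3 of 11 (27.3%) for the signal-transducing Smads, and these differences were not tested. Against 29.9% of the whole list, E9.5-only regions were 9 of 30, 11 of 47 and 9 of 37 in the first 3 of these lists, and 8 of 31, 10 of 37 and 4 of 12 in the other 3. The intracellular Smad6 and Smad7 held 6 E10.5-only regions of 32, and the secreted Nog and Smoc1 held 2 of 14.

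The genes with the largest stage-only counts in each list follow, where the whole lists had 29.9% (E9.5) and 35.0% (E10.5). Bmp2, a ligand, had 5 of 14 regions E9.5-only and 21 of 30 E10.5-only. For the receptors, the counts were 4 of 14 and 12 of 22 for Acvr2a, and 3 of 8 and 14 of 19 for Bmpr1b. Of the receptor-activated SMADs, Smad5 had 3 of 5 and 1 of 3, and Smad1 had 0 of 1 and 2 of 3. Bmper, an extracellular modulator, had 6 of 16 and 7 of 17. Smoc2, the paralogue of Smoc1, had 0 of 6 and 8 of 14, where Smoc1 had 3 of 11 and 1 of 9. Among intracellular regulators, Ski, a corepressor of SMAD complexes, had 6 of 12 and 0 of 7. Tgif1, another corepressor, had 1 of 11 and 2 of 12. Of the inhibitors of basic helix-loop-helix factors, Id2 had 4 of 8 and 0 of 7, and Id4 had 1 of 3 at each stage. These genes were picked for their counts, and no difference between them was tested.

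Similarity of pattern was measured by the summed absolute difference of 4 counts, regions and stage-only regions at each stage, over 7930 genes with at least 4 regions. Nearest to Smad6 was Ski (difference 0, with 12 and 7 regions), followed by 7 genes at a difference of 1, of which Zfp217 and Dgkz were closest in promoter score. Nearest to Smad7 were Sox4 (6), Chd7 and Sox6 (7 each). Bambi was matched exactly by Spry4, and 87 genes tied at a difference of 1, with Klf5 and Mapre2 closest in promoter score. Nog, with few regions, was matched exactly by 29 genes, of which Apc, Impdh1 and Ndfip1 were closest in promoter score. Smoc1 was matched exactly by Acot11 and Akap13 and followed by Col1a2 (1).

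Among markers of tissues, those of forelimb bud mesenchyme (Prrx1, Tbx5, Hand2, Lhx9, Twist1, Fgf10) had a promoter region at both stages in 6 of 6. Of all protein-coding genes 61.3% had one at both stages. Hindlimb markers (Tbx4, Pitx1, Isl1) had one in 3 of 3 at the earlier and 2 of 3 at the later stage, where Pitx1 had none. Somite and muscle (Meox1, Pax1, Myf5) and neural markers (Pax6, Olig2, Neurog2) had one in 3 of 3 at both stages. The presence of a promoter region thus did not tell forelimb bud mesenchyme from these tissues. Ectoderm markers (Trp63, Wnt7a, Fgf8) had one in 2 and 1 of 3, and endothelial and blood markers (Kdr, Cdh5, Gata1) in 1 and 1 of 3. Markers without a promoter region could still hold others, with 11 and 18 regions at Cdh5 and 1 and 5 at Trp63. Gata1 held 0 regions. The part of other cell types in the regions of the 5 genes was not tested.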

How the data were processed

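ATAC-seq libraries of 4 samples (2 biological replicates for each of 2 stages) had been aligned by the authors to mm9 with Bowtie 1.1.0, allowing 2 mismatches and 1 alignment, and accessible regions were called per replicate with MACS 1.4, with no control library. The authors combined replicates with MSPC (stringent p-value 1e-10, weak p-value 1e-06). The score deposited by the authors is the smallest MACS p-value of the replicates as -10 log10, and no shift of the reads for the transposase is stated. Read totals were not analysed here, so depth is unknown, and the lists bear no replicate values.

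Regions were annotated with GENCODE vM1 (NCBIM37, whose chromosome lengths equal those of mm9; 0 regions ran past an end), with 70064 starts of 22380 protein-coding genes. Distances run from region centres. GC content and motifs were taken in 301 bp around centres. Of the 5 members, 1 was matched by symbol in the RefSeq promoter table used. Nearest-start and overlap functions were tested on simulated intervals. Python 3.11.15, pandas 2.3.3, scipy 1.17.1 and pysam 0.24.0 were used.

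Members and gene lists were chosen with earlier results of these data known. Text names all 5 members, the 3 genes nearest to each in 4 counts, and pathway genes with the largest stage-only count per list.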

Additional observations from a re-analysis of the deposited data

How the results depend on the processing

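Each stage has 1 combined list, so leaving out a replicate could not be run, and no difference between stages has an error. No paired analysis was possible because the lists carry no replicate values and no test was made. Of 28 alternatives, 17 stayed within the limits set (1.5 times for a count, the Wilson interval for a share), 11 moved and 0 reversed. When starts of all gene types competed, the members held 28 regions at E9.5 and 32 at E10.5, since fewer regions can then be nearest to them. The higher-scoring 50% of each list left 25 and 24 regions, of which 37.5% were stage-only at E10.5. Set against the whole other list, 16.0% of the higher-scoring E9.5 regions and 4.17% of the E10.5 ones were stage-only. Reciprocal overlap of at least 50% gave 36.5% at E10.5. Shares of the whole lists under these settings are not given here. The 29.9% and 35.0% of the whole lists hold for the main setting, so these alternative shares have no background beside them. Alternatives for the rank change were chosen after seeing the data: with a limit of 30 points 6 pairs rose and 3 fell. With 10 points 12 rose and 14 fell, so that more fell than rose at that limit. Rises and falls were labelled separately, so this order is not part of the count of reversals. The best-scoring partner gave 11 that rose and 6 that fell. Depth is unknown, and its part in which regions were stage-only was not tested.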
